A study of Homo sapiens with 6 samples.

Results

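The genes described here are the 10 core genes of the cellular oxygen sensor: the subunits of the hypoxia-inducible factors (HIF), the hydroxylases that read oxygen, and VHL. They were taken from the deposited count table by gene symbol, and all 10 symbols were found among its 19868 entries. The libraries came from NGP, a human neuroblastoma cell line, as 3 Control libraries (described as sh-control) and 3 CAMKV-KD libraries (described as sh-CAMKV). Such labels usually stand for short hairpin RNA. CAMKV encodes a pseudokinase related to calmodulin-dependent kinases. The labels name no oxygen treatment in either group, and do not say how many hairpins were used or whether the 3 libraries of a group were separate cultures, and p-values therefore cover the spread among these libraries alone, which may be technical.

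HIF is a heterodimer of an oxygen-labile alpha subunit (HIF1A, EPAS1 or HIF3A) and a stable beta subunit (ARNT or ARNT2). In the presence of oxygen, the prolyl hydroxylases EGLN1, EGLN2 and EGLN3 mark the alpha subunit, which VHL then recruits to a ubiquitin ligase for degradation. HIF1AN, an asparaginyl hydroxylase, blocks the contact of the alpha subunit with the coactivators CREBBP and EP300. This control acts mainly on the protein, which was not measured here; EGLN3 and EGLN1 are themselves HIF target genes. In neuroblastoma and other sympathoadrenal tumours the pathway is known from EPAS1, which marks immature, neural crest-like cells, and from inherited VHL mutations in phaeochromocytoma.

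Total counts ran from 20238281 to 24701564 per library. CAMKV itself stood at 30.1% of its Control level, with a log2 fold change of −1.73 ± 0.065 (SE). Of the neuroblastoma markers in the cell type list, all 13 passed the filter on low counts, and their summed level was 2601 to 3435 CPM (counts relative to library size, scaled by the trimmed mean of M values, TMM) in Control and 2297 to 2536 CPM in CAMKV-KD. Among blood and endothelial markers 3 of 10 passed the filter, and 3 had no count in any library. Their summed level was 4.91 to 6.65 CPM in Control and 18.4 to 19.4 CPM in CAMKV-KD, of which the receptor gene KDR gave means of 4.18 and 17.6 CPM. Of 7 Schwann and glial markers 3 passed the filter, SOX10 had no count, and the summed level was 3.63 to 5.00 and 2.63 to 3.15 CPM. Of 6 epithelial markers 3 passed, KRT18 had no count, and the summed level was 3.41 to 4.95 and 4.69 to 8.87 CPM. All 8 fibroblast and stromal markers passed, summing to 709.4 to 890.3 CPM in Control and 928.7 to 992.6 CPM in CAMKV-KD. These markers did not move together. PDGFRA, the largest part of the sum, stood at 95.5% of Control, COL3A1 at 177.9% and PDGFRB at 67.8%. Mitochondrial genes took 1.67 to 1.90% of counts in Control and 2.70 to 2.92% in CAMKV-KD. The part of these markers and of the mitochondrial share in the results was not tested, and in bulk RNA fewer cells of a type and less RNA per cell cannot be told apart.

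All 10 genes passed the filter on low counts. With CAMKV knocked down, EGLN3 fell to less than 50% of its Control level, ARNT2 and EGLN2 rose, and HIF1AN rose by about 11%. HIF1A and EPAS1, the alpha subunits best known as oxygen-regulated activators, did not pass the test, and neither did HIF3A, ARNT, EGLN1 or VHL. Thus 4 of 10 were called at an adjusted p below 0.05 (edgeR quasi-likelihood test, adjusted over all 13366 genes tested), 3 higher and 1 lower. Among all tested genes 36.3% were called, 17.3% higher and 19% lower, so the count among the 10 was near the background. The median absolute log2 fold change was 0.34 over the 10 genes and 0.34 over all tested genes.

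**Figure D1:**
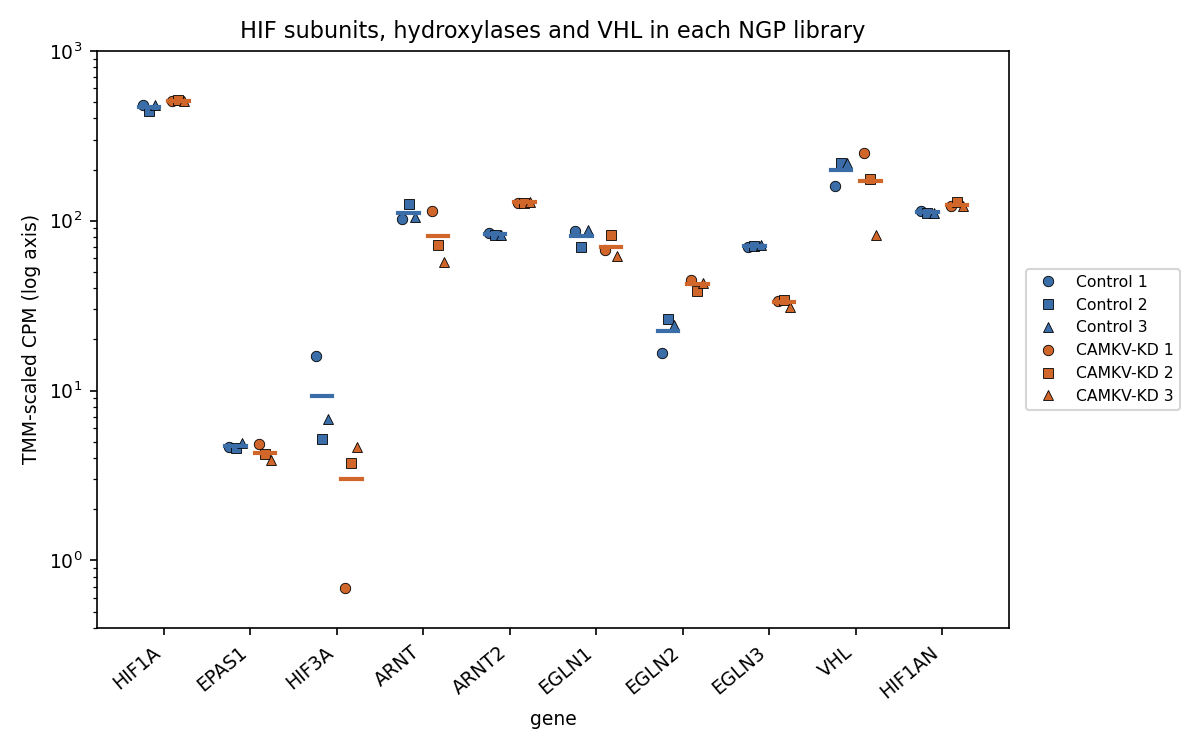
Level of each gene in each of the 6 libraries, as TMM-scaled CPM on a log axis; points are libraries, marked by replicate number, and short lines are group means. EGLN3 (31.2 to 34.3 against 70.3 to 71.5 CPM) and ARNT2 (127.0 to 129.6 against 82.5 to 85.0 CPM) separate with little spread, while VHL and HIF3A scatter widely in CAMKV-KD.

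The prolyl hydroxylases are shown first with their promoters, because of these 3 paralogues 1 fell, 1 rose and 1 did not pass the test. The lines give the 250 bases before the start of EGLN1 (chr1:231422288-231422537, minus strand), EGLN2 (chr19:40798941-40799190, plus strand) and EGLN3 (chr14:33951075-33951324, minus strand), from RefSeq on GRCh38.p14, written 5′ to 3′ on the gene's strand. The starts are those of RefSeq, and GENCODE 29 (GRCh38) places them elsewhere. There EGLN1 spans 231363751 to 231425044 and EGLN3 spans 33924231 to 34462774, so both windows lie inside these spans. EGLN2 starts there at 40798996, within its window. Capitals mark matches to the core of the hypoxia response element, ACGTG or GCGTG, searched on both strands.
EGLN1: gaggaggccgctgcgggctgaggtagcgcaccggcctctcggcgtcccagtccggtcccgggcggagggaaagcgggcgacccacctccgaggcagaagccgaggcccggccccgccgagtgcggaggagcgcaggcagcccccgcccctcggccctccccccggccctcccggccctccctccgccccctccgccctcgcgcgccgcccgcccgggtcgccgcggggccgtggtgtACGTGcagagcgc
EGLN2: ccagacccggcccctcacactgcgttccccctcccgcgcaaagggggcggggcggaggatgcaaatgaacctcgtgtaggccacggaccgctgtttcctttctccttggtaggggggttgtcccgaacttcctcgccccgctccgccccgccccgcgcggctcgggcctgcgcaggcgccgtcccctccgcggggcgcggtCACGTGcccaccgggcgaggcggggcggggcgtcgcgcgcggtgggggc
EGLN3: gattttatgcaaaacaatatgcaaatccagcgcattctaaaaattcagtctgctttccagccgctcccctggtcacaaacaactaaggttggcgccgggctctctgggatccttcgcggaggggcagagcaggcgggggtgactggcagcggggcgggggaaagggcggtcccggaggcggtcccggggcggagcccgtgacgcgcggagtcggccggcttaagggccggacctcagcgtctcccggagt
In this window EGLN1 held 1 match, 13 bases before the start. EGLN2 held 2 overlapping matches, 1 on each strand, which together form the palindrome CACGTG, the letters of an E-box. EGLN3 held none, which says only that these letters are not in this window. Such matches are common: 56.7% of 10196 tested genes with a promoter in the table held at least 1, as did 5 of the 8 genes of the oxygen sensor found there and 18 of 22 promoters of the HIF target list. The 8 were HIF1A, EPAS1, HIF3A, ARNT, EGLN1, EGLN2, EGLN3 and HIF1AN. Of these, HIF1A and EGLN2 had 2 promoter entries each and HIF3A had 3. Only the first entry of a gene by position was used, so matches at other starts are not given.

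EGLN3, the prolyl hydroxylase most strongly induced by HIF and also known in sympathetic neurons for a role in cell death after loss of nerve growth factor, had the smallest p of the 10 genes. EGLN3 stood at 70.3, 70.8 and 71.5 CPM in Control, and at 33.6, 34.3 and 31.2 CPM in CAMKV-KD. Every CAMKV-KD library lay below every Control library, and the values within each group were close. On the log2 scale the difference was −1.10 ± 0.053 (SE; adjusted p = 0.000186, edgeR), and 46.6% of the Control level remained. These values rest on 1702, 1543 and 1594 counts in Control and 833, 708 and 700 in CAMKV-KD. EGLN3 (MSTRG.7611) is annotated by GENCODE 29 (GRCh38) at 33924231 to 34462774 of chromosome 14, minus strand. That span contains SPTSSA, a gene on the same strand that was counted as a separate locus and was also lower (log2 fold change −0.47).

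EGLN2, which is not known to be induced by hypoxia, went the other way. Its level was 16.6, 26.4 and 24.4 CPM in Control and 44.8, 38.7 and 43.2 CPM in CAMKV-KD. The groups did not overlap, although Control 1 stood below the other Control libraries. The log2 fold change was 0.91 ± 0.19 (SE; adjusted p = 0.0154, edgeR), a 1.88-fold rise. The call was lost without CAMKV-KD 1 (0.87, adjusted p = 0.0519, edgeR), with the direction kept. EGLN2 (chromosome 19, plus strand, 40798996 to 40808433) shares the locus identifier MSTRG.14225 with RAB4B, MIA, MIA-RAB4B, RAB4B-EGLN2 and CTC-490E21.12, so reads could be assigned to a neighbour. RAB4B, a small GTPase gene just upstream, was at 0.046 ± 0.15 (log2 fold change ± SE) and did not pass, and the readthrough RAB4B-EGLN2 had 5 counts in all 6 libraries together.

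EGLN1, the main oxygen sensor of most cells, did not pass the test. Its level was 87.1, 70.0 and 87.5 CPM in Control and 66.8, 82.7 and 61.6 CPM in CAMKV-KD. The groups overlapped, since Control 2 lay among the CAMKV-KD values. The log2 fold change was −0.21, with a 95% interval from −0.58 to 0.16 (adjusted p = 0.316, edgeR). The log2 ratio of EGLN3 to EGLN1 counts, which needs no library scaling, was −0.20 ± 0.18 in Control and −1.08 ± 0.17 in CAMKV-KD (SD, n = 3). It was lower in every CAMKV-KD library, by 0.88 on average (exact two-sided permutation test, p = 0.1, the smallest that 3 against 3 libraries allow; adjusted over 3 ratios, 0.1).

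Scaled by exonic length, EGLN2 went from 14.1 ± 3.39 to 31.3 ± 3.92% of the summed EGLN level (SD, n = 3), and EGLN3 from 39.7 ± 1.60 to 21.8 ± 0.51%. EGLN1 stood at 46.2 ± 4.31 and 46.9 ± 4.40%. The sum of the 3 genes was 24.3 ± 1.12 CPM per kb in Control and 20.6 ± 1.33 CPM per kb in CAMKV-KD (SD, n = 3). These shares depend on the length used: with the longest coding transcript of each gene, EGLN3 led in Control with 56.2%, and EGLN2 led in CAMKV-KD with 41.1%.

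**Figure D2:**
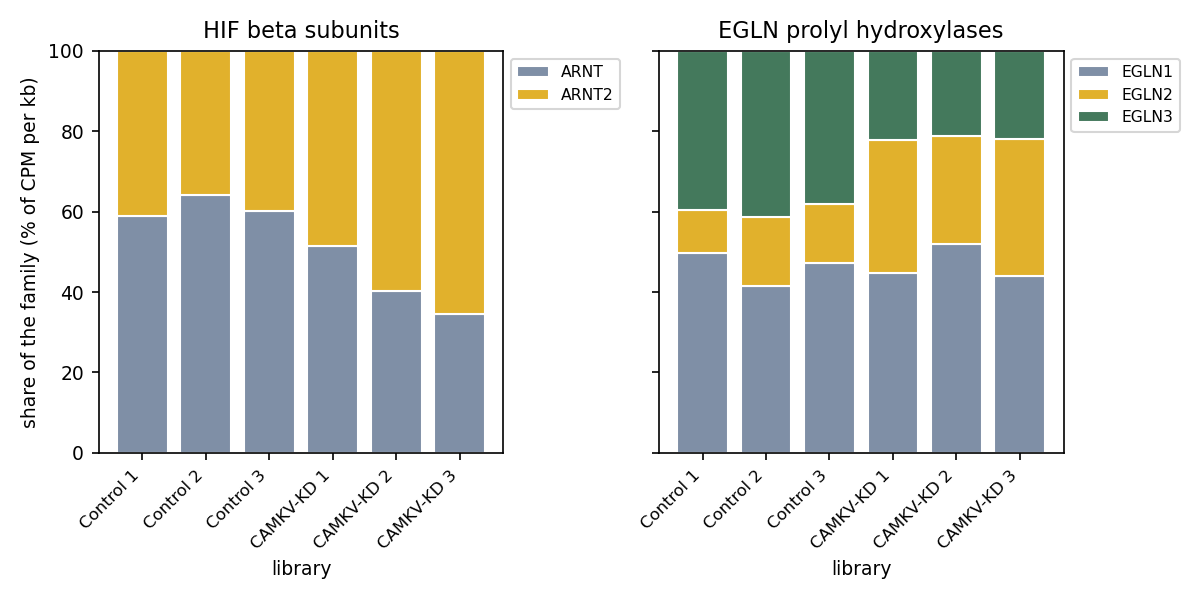
Share of each gene in the summed level of its family (percent of CPM per kb of exonic length) in each library, for the beta subunits on the left and the prolyl hydroxylases on the right. ARNT2 takes 35.8 to 41.1% of the beta subunits in Control and 48.5 to 65.5% in CAMKV-KD; EGLN2 takes 10.5 to 17.2% and 26.8 to 34.1% of the prolyl hydroxylases.

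Of the beta subunits, ARNT2, which is enriched in neural tissue, rose. Its level was 85.0, 82.5 and 82.8 CPM in Control and 127.5, 127.0 and 129.6 CPM in CAMKV-KD. No value of either group came near the other group. This was a log2 fold change of 0.62 ± 0.032 (SE; adjusted p = 0.000237, edgeR), a 1.53-fold rise. ARNT2 (MSTRG.9315) lies on the plus strand of chromosome 15, from 80404350 to 80597937, with no other entry in its locus.

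ARNT, the general beta subunit, was not called. Its level was 102.4, 124.7 and 105.7 CPM in Control and 113.9, 72.0 and 57.4 CPM in CAMKV-KD. CAMKV-KD 1 lay inside the Control range and the other CAMKV-KD libraries below it. The log2 fold change was −0.45, with a 95% interval from −1.12 to 0.22 (adjusted p = 0.248, edgeR). Without CAMKV-KD 1 it was −0.78 and was called (adjusted p = 0.0228, edgeR). ARNT shares its locus (MSTRG.1680) with CTSK, which had at most 36 counts in a library.

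ARNT was the more abundant by count in Control, where the log2 ratio of ARNT2 to ARNT was −0.27, −0.60 and −0.35. After knockdown the ratio was 0.16, 0.82 and 1.18. Its values did not overlap between groups and were higher after knockdown, by 1.12 on average (exact two-sided permutation test, p = 0.1; adjusted over 3 ratios, 0.1). Per kb of exonic length, ARNT2 made up 38.9 ± 2.79% of the beta subunit mRNA in Control and 57.9 ± 8.65% in CAMKV-KD (SD, n = 3). The sum of ARNT and ARNT2 was 26.7 to 29.8 CPM per kb in Control and 25.6 to 33.9 CPM per kb in CAMKV-KD, so the groups overlapped.

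HIF1A, the widely expressed alpha subunit, had the highest level per length of the 10 genes in either group, at 90.7 ± 4.07 CPM per kb in Control and 98.4 ± 0.67 CPM per kb in CAMKV-KD (SD, n = 3). Without length scaling it stood at 480.3, 443.0 and 478.2 CPM in Control and 506.2, 510.9 and 504.1 CPM in CAMKV-KD. The groups did not overlap, but the difference was small and missed the threshold, with a log2 fold change of 0.12 ± 0.038 (SE; adjusted p = 0.0622, edgeR) and a 95% interval from 0.022 to 0.21. It was called when libraries were scaled by their totals (0.18, adjusted p = 0.0211, edgeR) and in DESeq2 (0.12, adjusted p = 0.0338). SNAPC1, a subunit of a small nuclear RNA transcription complex, carries the same locus identifier (MSTRG.7854), so reads could be assigned to a neighbour. SNAPC1 fell from 120.7 ± 3.80 to 66.9 ± 2.07 CPM (SD, n = 3; log2 fold change −0.85). Whether read assignment had a part in the small HIF1A difference was not tested.

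EPAS1, the alpha subunit of endothelial and sympathoadrenal cells, was scarce. Its level was 4.67, 4.59 and 4.89 CPM in Control and 4.85, 4.21 and 3.88 CPM in CAMKV-KD, from 87 to 120 counts per library. The groups overlapped, with a log2 fold change of −0.13 and a 95% interval from −0.45 to 0.19 (adjusted p = 0.481, edgeR). Per length it made up 0.70 ± 0.028% of the alpha subunit mRNA in Control and 0.59 ± 0.069% in CAMKV-KD (SD, n = 3), against 98.1 ± 0.67 and 99.0 ± 0.18% for HIF1A. The log2 ratio of EPAS1 to HIF1A counts was −6.62 ± 0.049 and −6.88 ± 0.16 (SD, n = 3), with no overlap between groups (exact two-sided permutation test, p = 0.1; adjusted over 3 ratios, 0.1). The separation was narrow, with Control 1 at −6.68 and CAMKV-KD 1 at −6.70, and rests on the few EPAS1 counts.

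HIF3A, whose splice forms include inhibitors of the other alpha subunits, was low and variable. Its level was 15.9, 5.18 and 6.82 CPM in Control and 0.69, 3.73 and 4.63 CPM in CAMKV-KD. The groups did not overlap, yet CAMKV-KD 3 lay close to Control 2, while Control 1 and CAMKV-KD 1 stood far apart from the rest of their groups. The log2 fold change of −1.63 had a 95% interval from −3.62 to 0.36 and did not pass (adjusted p = 0.17, edgeR); leaving out Control 1 gave −0.995, leaving out CAMKV-KD 1 gave −1.16, and leaving out CAMKV-KD 3 gave −2.09.

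VHL, the substrate receptor that recognizes hydroxylated alpha subunits, had the largest SD of the 10 genes in either group, on the CPM scale. Its level was 159.1, 219.2 and 218.2 CPM in Control and 251.8, 176.6 and 82.6 CPM in CAMKV-KD. The CAMKV-KD values reached both above and below the Control range. The log2 fold change was −0.22, with a 95% interval from −1.26 to 0.81 (adjusted p = 0.716, edgeR), and changed sign to 0.11 without CAMKV-KD 3. The coefficient of variation over the CAMKV-KD libraries was 49.8% for VHL and 36.2% for ARNT. Of the 4740 tested genes with a mean of at least 50 CPM, 97.5% had a lower value than VHL and 94.2% a lower value than ARNT. VHL (MSTRG.18606; chromosome 3, plus strand, 10141008 to 10152220) has no other entry in its locus.

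HIF1AN rose slightly. Its level was 114.3, 111.6 and 111.3 CPM in Control and 122.3, 129.1 and 121.3 CPM in CAMKV-KD. The groups did not overlap, with a log2 fold change of 0.14 ± 0.039 (SE; adjusted p = 0.0357, edgeR). The call was lost in each of the 6 fits without a library (adjusted p up to 0.0962, edgeR) and under upper-quartile scaling (0.12, adjusted p = 0.0606, edgeR). HIF1AN (chromosome 10, plus strand, 100529072 to 100559998) overlaps NDUFB8 on the opposite strand at its start, and NDUFB8 was lower (log2 fold change −0.29). Since no source used here gives the strand setting, reads there cannot be told apart.

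**Figure D3:**
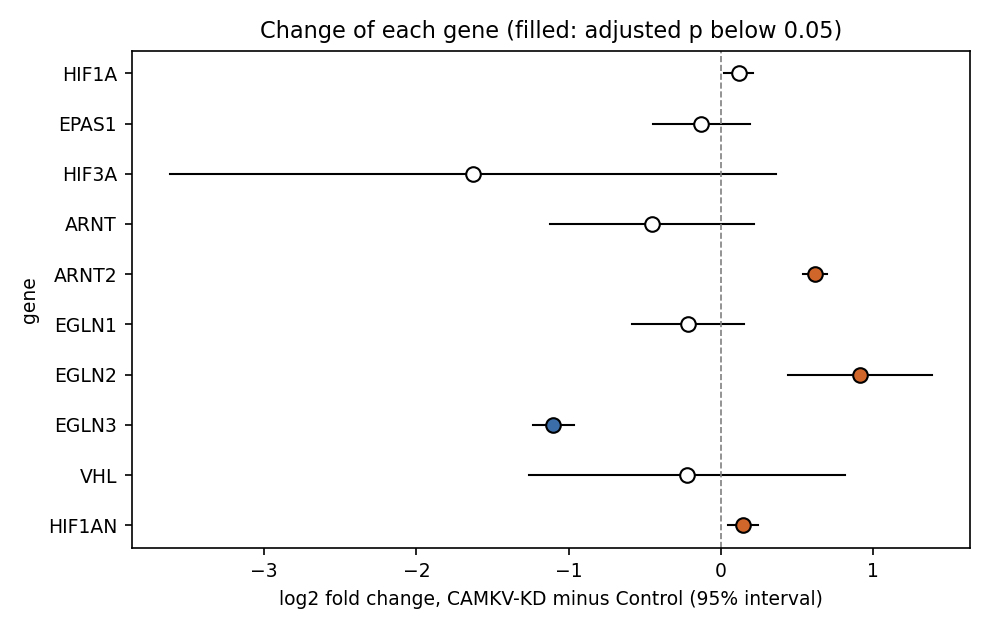
Log2 fold change of each gene, CAMKV-KD minus Control, with the 95% interval of the edgeR fit; filled points passed an adjusted p below 0.05 (orange higher, blue lower). EGLN3 at −1.10 and ARNT2 at 0.62 have the narrowest intervals among the genes past 0.5 in size, and HIF3A has the widest.

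By level per kb of merged exonic length, the order in Control was HIF1A, VHL, ARNT, EGLN1, ARNT2, EGLN3, HIF1AN, EGLN2, HIF3A and EPAS1. The order depends on the length used: per kb of the longest coding transcript EGLN3 (24.9 CPM per kb) came just after VHL and above ARNT (22.7 CPM per kb), and ARNT2 (12.5 CPM per kb) came above EGLN1 (11.5 CPM per kb). With merged exons, EGLN1 (11.2 ± 1.38 CPM per kb) and ARNT2 (10.8 ± 0.18 CPM per kb) did not differ beyond their spread, and neither did HIF3A (1.11 ± 0.69 CPM per kb) and EPAS1 (0.65 ± 0.021 CPM per kb; SD, n = 3). In CAMKV-KD, ARNT2 at 16.5 ± 0.18 CPM per kb stood above ARNT at 12.4 ± 4.50 CPM per kb, a gap within the spread of ARNT, and EGLN2 at 6.42 ± 0.48 CPM per kb stood above EGLN3 at 4.49 ± 0.22 CPM per kb (SD, n = 3). Values of 6 of the 10 genes did not overlap between the groups, where 52.8% of all tested genes did not.

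The genes whose pattern over the 6 libraries lay closest to EGLN3 and EGLN2, the called genes with the largest changes, were found by the root mean square difference of centred log2 CPM among 10736 genes with a mean of at least 5 CPM. For EGLN3 they were TGFB2, a transforming growth factor (difference 0.034), ATCAY, a brain protein also called caytaxin (0.045), and CBLN1, a synaptic organizer (0.048). For EGLN2 they were COA1, a mitochondrial assembly factor (0.097), RELN, a secreted guidance protein (0.11), and CCNE2, a G1/S cyclin (0.11).

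Around VHL stand the other parts of its ubiquitin ligase and the NEDD8 pathway that activates cullins. Of their 11 tested genes none was called higher and 1 fell, so 9.09% were called beside 36.3% of all tested genes. Their median log2 fold change was −0.024 beside 0.0045 over all tested genes. The gene that fell was NEDD8, the cullin modifier, at −0.23 ± 0.038 (SE), and it shares its locus with 7 other entries. The scaffold gene CUL2 was at −0.030 ± 0.26 (SE) and the elongin genes ELOB and ELOC, listed in the table as TCEB2 and TCEB1, were at 96.7 and 98.3% of Control; none of these passed.

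Among coactivators and their competitors, 2 of 10 rose and 4 fell (median −0.089), beside 17.3% of all tested genes higher and 19% lower. The genes that rose were the acetyltransferases that bind the HIF transactivation domain: CREBBP by 1.20 ± 0.15 (log2 ± SE), from 33.3 ± 3.17 to 76.7 ± 14.0 CPM, and EP300 by 0.64 ± 0.045, from 142.7 ± 7.12 to 221.8 ± 2.79 CPM (SD, n = 3). CITED2 and CITED4, which compete with HIF for the same domain of CREBBP and EP300, fell, with log2 fold changes of −0.46 ± 0.048 and −1.45 ± 0.18 (SE). RUVBL2 (reptin), a chromatin helicase, was at −0.40 (log2).

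Of 17 regulators of HIF and hydroxylase stability, 5 rose and 5 fell (median 0.13), which is 58.8% called beside 36.3% of all tested genes. AJUBA, of the LIM proteins listed as scaffolds for EGLN proteins and VHL, was higher by 0.60 ± 0.11 (log2 ± SE), in a locus shared with 2 other entries. OS9, an EGLN-binding protein of the endoplasmic reticulum, rose by 0.57 and ING4, a chromatin reader that binds EGLN1, by 0.42. The chaperone genes HSP90AA1 and HSP90AB1, whose products stabilize HIF1A, fell, with log2 fold changes of −0.20 and −0.36. RACK1, listed in the table as GNB2L1, whose product competes with HSP90 for HIF1A, fell from 1635 ± 77.8 to 1169 ± 107.3 CPM (SD, n = 3). SIAH2, a ubiquitin ligase for EGLN3, stood at 99.3% of Control and did not pass.

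Enzymes that make or use 2-oxoglutarate, the cosubstrate of the hydroxylases, or succinate and fumarate, which inhibit them, had 5 of 13 genes lower and 2 higher (median −0.28), beside 19% and 17.3% of all tested genes. SDHD and SDHC, of succinate dehydrogenase, fell, with log2 fold changes of −0.66 and −0.28, the first in a locus shared with 3 other entries. OGDH, of the 2-oxoglutarate dehydrogenase complex, fell by 0.30 (log2). IDH2 and IDH1, which make 2-oxoglutarate from isocitrate, rose by 0.24 and 0.22.

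Of 28 tested HIF target genes outside the 10, 18 fell and 2 rose, beside 19% of all tested genes lower and 17.3% higher; the median log2 fold change was −0.84. The smallest p-values were those of BNIP3 (−1.67), PDK1 (−2.18) and NDRG1 (−2.11). TFRC, the transferrin receptor gene, rose by 0.63 and SLC2A1, a glucose transporter gene, by 0.35. CA9 had no count in CAMKV-KD and was at least 26.7-fold lower against a floor of 3 counts per library. At that bound CA9 was still the lowest of the list, so the median of −0.84 could not move. EGLN3, itself a HIF target, moved in the same direction as most of this list, and EGLN1 and VEGFA (95.3% of Control) did not pass. HIF protein was not measured, and a link between the EGLN3 fall and this list was not tested.

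**Figure D4:**
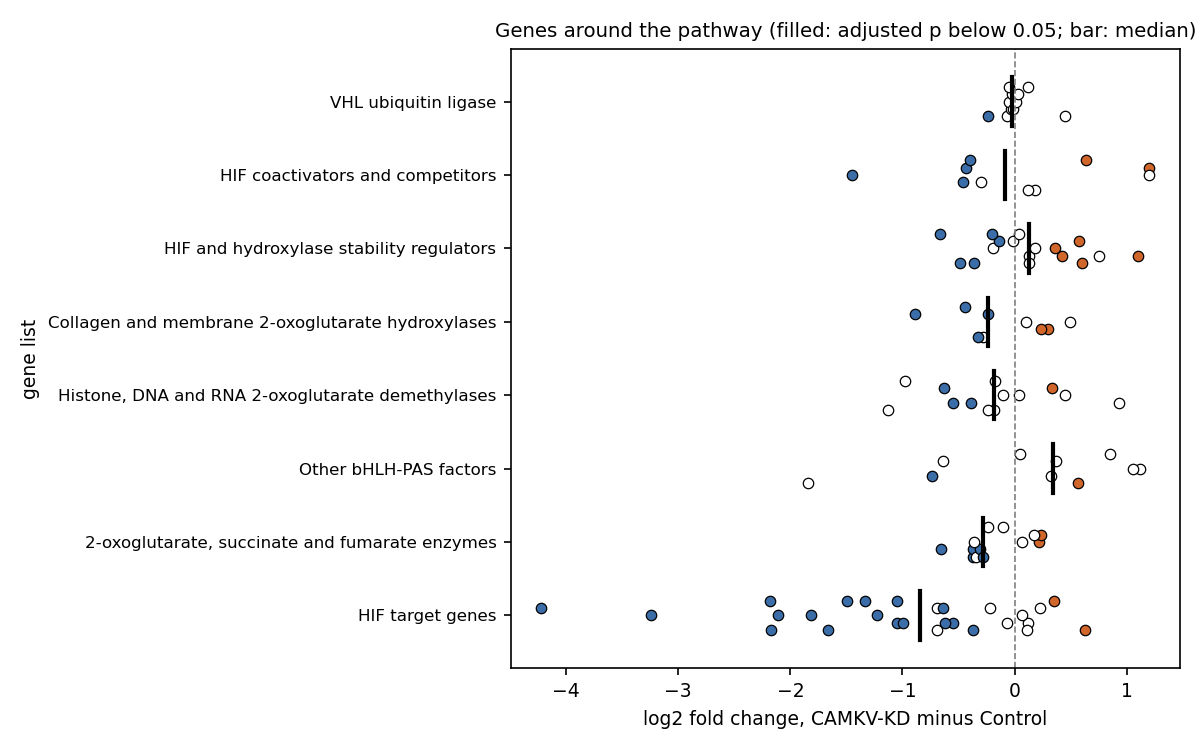
Log2 fold change (CAMKV-KD minus Control) of each tested gene in 8 lists around the oxygen sensor; filled points passed an adjusted p below 0.05 (orange higher, blue lower) and bars are list medians. CA9, with no CAMKV-KD count, is not drawn but is in the median. The HIF target genes lie mostly below 0 (median −0.84), and the VHL ligase genes cluster around 0 (median −0.024).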

How the data were processed

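RNA-seq counts per gene were used from 3 Control and 3 CAMKV-KD libraries of NGP cells. The deposited values are whole-number counts with no normalization. StringTie 1.3.5, HISAT2 2.1.0, FastQC 0.11.2 and the build GRCh38.p13 are named in the submitters' processing notes; the counting step, annotation release and strand setting are not given in what was used here. Entries merged by StringTie can hold several symbols, so reads of neighbouring genes can be split between them. Of entries that share a symbol, that with the highest mean count carried it.

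The tests used edgeR 4.0.16 in R 4.3.3: filterByExpr, TMM scaling, and the quasi-likelihood F-test with group as the only term on 13366 genes, with Benjamini-Hochberg adjustment and a threshold of 0.05. SEs were derived from F, as the size of the log2 change over its square root. The scripts were tested on simulated data. Alternatives were other scalings, no filter, DESeq2 1.42.0, limma-voom 3.58.1, summed entries, each library left out and the replicate number as a block. Positions and exonic lengths (all exons of a gene merged) came from GENCODE 29 on GRCh38, and promoters from RefSeq.

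No pair of libraries held identical values; chi-square per degree of freedom was 41.5 to 52.1 within groups and 104.7 to 119.2 between groups. Counts carry no molecular identifiers in the labels, so the floor of 3 counts (0.121 to 0.145 CPM per library) covers counting error only.

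The 10 genes and the lists were chosen with earlier results of these data known. Named by rule were CAMKV, all 10 genes, up to 3 called genes of smallest p per direction in each pathway list, entries that share a locus with one of the 10, and the 3 genes closest in pattern to each of the 2 called genes with the largest change. Outside this rule, CUL2, ELOB, ELOC, SIAH2, VEGFA, CA9 and KDM3A were also named. So were the overlapping genes SPTSSA and NDUFB8, and the markers KDR, SOX10, KRT18, PDGFRA, COL3A1 and PDGFRB.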

Additional observations from a re-analysis of the deposited data

How the results depend on the processing

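Of the 10 genes, EGLN3 kept its call under all 14 alternatives, with log2 fold changes from −1.13 to −1.04, and so did ARNT2 (0.59 to 0.68). EGLN2 kept its direction in all 14 (0.74 to 1.04) and lost its call in 2. HIF1AN lost its call in 8 of 14. With 1 library left out, 1739 to 1925 genes were called higher and 2044 to 2119 lower; of the 10 genes, 1 to 2 were called higher and 1 to 2 lower. The extremes of the latter counts came without CAMKV-KD 1, where EGLN2 and HIF1AN were lost and ARNT was gained. Under the same settings, the ratio differences ran from −0.34 to −0.18 for EPAS1 to HIF1A, from −0.94 to −0.78 for EGLN3 to EGLN1, and from 0.90 to 1.40 for ARNT2 to ARNT, with no change of sign. With 1 library left out, VHL ran from −0.62 to 0.11 and RAB4B from −0.10 to 0.15; both changed sign without CAMKV-KD 3, and neither passed the test in any fit. Scaling by library totals moved the median of all genes from 0.0045 to 0.064 and gave 2812 higher and 2175 lower calls.

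No pairing by replicate number was seen: deviations of libraries with the same number correlated at −0.0074, −0.058 and −0.029. The labels do not say whether libraries with the same number shared a culture or batch, and weak correlations cannot exclude it. With the replicate number as a block, 1526 genes were called higher and 1811 lower, and 1 of the 10 genes was called higher; EGLN2 (adjusted p = 0.0598, edgeR) and HIF1AN (adjusted p = 0.1003, edgeR) lost their calls. The calls of ING4 (0.0636), KDM6A (0.0534), IDH1 (0.0600), SLC2A1 (0.0508), PLOD3 (0.0593), NPAS3 (0.0740), COA1 (0.0549) and CCNE2 (0.0566) were also lost under the block (adjusted p, edgeR). The cause of these changes was not tested. Family shares with the longest coding transcript as length were added after seeing the data; ARNT2 was then 35.6% of the beta subunits in Control and 54.5% in CAMKV-KD.

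Among the other genes named whose alternatives were computed, P4HA1, PLOD3, NPAS3, COA1 and CCNE2 each lost their call in at least 1 fit without a library (adjusted p up to 0.0706, edgeR). EPAS1 and HIF3A rest on few counts (87 to 120 and 17 to 386 per library), which limits what can be detected for them.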

Other observations

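Other oxygenases that depend on 2-oxoglutarate were also measured. Of 9 tested collagen, membrane and ribosomal hydroxylases 2 rose and 4 fell (median log2 fold change −0.24), beside 17.3% of all tested genes higher and 19% lower. PLOD1 and PLOD2, lysyl hydroxylases of collagen, fell, with log2 fold changes of −0.44 and −0.32, and PLOD3 rose by 0.23. P4HA1, a collagen prolyl hydroxylase and a HIF target, fell by 0.88 ± 0.20 (log2 ± SE), and JMJD6 rose by 0.30. Of 13 demethylases of histones, DNA and RNA 1 rose and 3 fell (median −0.19), so 30.8% were called, near the 36.3% of all tested genes. KDM4B and KDM5B, histone demethylases, fell, with log2 fold changes of −0.63 and −0.55, FTO, an RNA demethylase, fell by 0.38, and KDM6A rose by 0.33. KDM3A, a hypoxia-induced histone demethylase, stood at 102.8% of Control and did not pass; it is named after its value was seen.

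Among other bHLH-PAS transcription factors, the family of the HIF subunits, 1 of 10 tested genes rose and 1 fell (median 0.35), so 20% were called, beside 36.3% of all tested genes. AHR, the aryl hydrocarbon receptor, which also pairs with ARNT, was at 51.3 ± 4.58 CPM in Control and 76.1 ± 2.49 CPM in CAMKV-KD (SD, n = 3), a log2 rise of 0.57 ± 0.076 (SE). NPAS3, a neuronal factor, fell by 0.73 from 1.71 ± 0.069 to 1.03 ± 0.12 CPM (SD, n = 3).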
